A study of Mus musculus with 36 samples.

Results

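The tricarboxylic acid cycle enzymes described here are 9 nuclear genes of mitochondrial proteins, followed in heart, kidney and liver of young adult mice: Cs, Idh3a, Idh3b, Idh3g, Ogdh, Suclg1, Sdha, Fh1 and Mdh2. The rule that chose them uses their place in the cycle and no measured value, and each symbol was matched to 1 Ensembl gene among the 78239 genes of the count tables, of which 47683 had at least 1 count. The animals were wild-type male C57BL/6NCrl mice, fed ad libitum and given no treatment but ketamine and xylazine anaesthesia, killed when 8, 10 or 12 weeks old. Each of the 9 groups of tissue and age held 4 libraries of polyA RNA from whole tissue, 36 in all. All 9 genes passed the filter on low counts in every fit, and the lowest count of any of them in any library was 767.

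The cycle oxidises the acetyl group of acetyl-CoA to carbon dioxide in the mitochondrial matrix and hands the electrons to the respiratory chain as NADH and reduced flavin. Cs, citrate synthase, joins acetyl-CoA to oxaloacetate and opens the cycle. Idh3a, Idh3b and Idh3g encode the catalytic and the regulatory subunits of the NAD-dependent isocitrate dehydrogenase, and Ogdh encodes the first enzyme of the 2-oxoglutarate dehydrogenase complex. Suclg1 is the alpha subunit of succinyl-CoA ligase and pairs with either of a pair of beta subunits, Sucla2 or Suclg2. Sdha, the flavoprotein of succinate dehydrogenase, is also part of respiratory complex II, Fh1 is fumarate hydratase, and Mdh2, mitochondrial malate dehydrogenase, returns the cycle to oxaloacetate. Heart muscle is known for a dense content of mitochondria, whereas liver also draws cycle intermediates off for the synthesis of glucose, urea and lipid.

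The 9 genes lie on 9 different chromosomes (GRCm39). Cs was annotated at chr10:128172837-128198363, Idh3a at chr9:54493575-54514730, Idh3b at chr2:130121227-130126467, Idh3g at chrX:72820644-72830719 and Ogdh at chr11:6241551-6309233. Suclg1 was annotated at chr6:73225365-73253894, Sdha at chr13:74469359-74498436, Fh1 at chr1:175425290-175453205 and Mdh2 at chr5:135807292-135820882. Counts were made without regard to strand, and a read pair that fell on 2 overlapping genes was not counted, so that exons shared with a neighbour lose reads. The shared part of the exons was largest for Idh3g at 33.7%, which overlaps Srpk3 and Ssr4. It was 22.9% for Idh3a, which overlaps Acsbg1, 18.2% for Cs and 12.0% for Idh3b. It was 5.34% or less for the other 5 genes and 0 for Suclg1 and Mdh2.

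The promoters of the 9 genes were read from the genome over 300 bases, from 250 bases before the start of the canonical transcript to 50 bases from it onwards, and searched on both strands for 4 short motifs of factors known to act on mitochondrial genes. The letters searched were AAGGTCA for the estrogen-related receptors, GCGCANGCG for NRF1, CCGGAAGT for the ETS factors and ATGGCGGC for YY1. The receptor motif was in 4.48% of 21770 promoters of the same length and in 0 of the 9, the NRF1 motif in 8.08% of all and in 1 of the 9 (Sdha, at 2 positions), the ETS motif in 4.35% of all and in 1 of the 9 (Mdh2), and the YY1 motif in 1.94% of all and in 1 of the 9 (Idh3g). A match of letters is no evidence of binding, and a window without a match says nothing of the factor. The windows that held a motif are printed on the strand of the gene with the match in capitals, together with that of Fh1, whose levels set it apart from the other 8 genes below and whose window held none of the 4. For Idh3g the capitals are the YY1 motif on the opposite strand.
Sdha, chr13:74498387-74498686, minus strand: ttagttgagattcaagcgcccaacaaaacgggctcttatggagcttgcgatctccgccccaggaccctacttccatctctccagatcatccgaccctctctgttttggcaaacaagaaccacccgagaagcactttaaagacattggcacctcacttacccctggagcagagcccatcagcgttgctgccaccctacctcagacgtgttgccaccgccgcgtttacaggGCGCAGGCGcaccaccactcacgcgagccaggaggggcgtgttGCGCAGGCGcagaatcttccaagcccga
Mdh2, chr5:135807042-135807341, plus strand: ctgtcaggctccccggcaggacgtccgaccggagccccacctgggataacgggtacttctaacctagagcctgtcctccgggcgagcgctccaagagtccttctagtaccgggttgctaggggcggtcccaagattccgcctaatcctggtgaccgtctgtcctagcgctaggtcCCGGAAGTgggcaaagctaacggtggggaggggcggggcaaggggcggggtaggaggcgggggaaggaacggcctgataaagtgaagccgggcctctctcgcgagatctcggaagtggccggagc
Idh3g, chrX:72830670-72830969, minus strand: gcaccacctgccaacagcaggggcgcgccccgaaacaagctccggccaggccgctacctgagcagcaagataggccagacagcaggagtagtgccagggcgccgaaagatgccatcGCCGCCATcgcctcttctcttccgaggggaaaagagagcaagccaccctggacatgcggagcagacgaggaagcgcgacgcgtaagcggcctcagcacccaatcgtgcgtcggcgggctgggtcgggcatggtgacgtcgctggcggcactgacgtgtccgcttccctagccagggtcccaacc
Fh1, chr1:175453156-175453455, minus strand: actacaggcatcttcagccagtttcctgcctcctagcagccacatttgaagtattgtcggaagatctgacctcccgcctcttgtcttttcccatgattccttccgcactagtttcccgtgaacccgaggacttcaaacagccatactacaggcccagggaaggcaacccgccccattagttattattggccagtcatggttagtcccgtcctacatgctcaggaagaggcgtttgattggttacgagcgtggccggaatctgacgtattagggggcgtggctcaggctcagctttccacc

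Levels are given as CPM, counts scaled to a common library size by trimmed mean of M-values (TMM) over the 36 libraries. Between 21031599 and 33637390 read pairs were assigned to genes in each library. Marker genes matched the labelled tissues: the summed CPM of 6 heart muscle genes was 47656 to 63820 in heart and at most 3.64 elsewhere, that of 6 kidney tubule genes was 20638 to 26134 in kidney and at most 6.49 elsewhere, and that of 6 hepatocyte genes was 88175 to 155919 in liver against 1135 to 1920 in kidney, where Cyp2e1 led, and at most 21.3 in heart. The sum of 6 brown fat genes was 3.42 to 47.4 CPM in 8-week kidneys. It was 6.19 to 25.3 in 10-week and 3.84 to 22.7 in 12-week kidneys. The highest was the second 8-week kidney, with Ucp1 at 16.2 CPM against at most 6.37 in any other kidney. Among the 8-week kidneys that library also had the highest CPM of each of the 9 members. Its part in the kidney values was not tested. The share of read pairs that mapped nowhere was 0.503% to 1.54% in heart and kidney and 2.81% to 13.0% in liver. It was not stated whether libraries with the same number came from the same animal, and p-values measure the spread between these libraries. In whole tissue, fewer cells of a type and less RNA per cell cannot be told apart.

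All 9 transcripts were more abundant in heart than in kidney and in liver, but by very unequal amounts. Cs and Idh3a stood farthest above the other tissues, whereas Suclg1 stood the least above kidney, a difference lost with library totals alone, and Fh1 the least above liver. Kidney lay above liver for Idh3g, Idh3a, Ogdh and Cs, the difference of Sdha between them was within its error, and Fh1 alone was lower in kidney than in liver.

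The entry step differed most between heart and kidney. Cs was between 1199 and 1622 CPM in the 12 heart libraries with a median of 1298, between 198 and 251 with a median of 227 in kidney, and between 95.3 and 149 with a median of 125 in liver. The 3 tissues did not overlap. In the model of all 36 libraries, taking the mean over the 3 ages, Cs was higher in heart than in kidney by 2.55 ± 0.052 on the log2 scale (SE; edgeR quasi-likelihood, adjusted p = 8.29e-31, n = 12 per tissue), which is 5.84-fold. It was 10.7-fold higher in heart than in liver and 1.83-fold higher in kidney than in liver (edgeR, adjusted p = 1.53e-17).

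The 3 subunits of isocitrate dehydrogenase did not follow the same pattern. The catalytic subunit Idh3a was between 614 and 720 CPM in heart (median 683), between 127 and 151 in kidney (137) and between 33.4 and 88.3 in liver (48.1). It showed the largest difference of the 9 between heart and liver, 3.73 ± 0.10 on the log2 scale or 13.2-fold. The regulatory subunit Idh3b was between 484 and 604 CPM in heart (median 539), between 173 and 191 in kidney (185) and between 126 and 191 in liver (156), so that its kidney and liver libraries overlapped and their difference was 0.21 ± 0.042 on the log2 scale (edgeR, adjusted p = 2.56e-05). The other regulatory subunit, Idh3g, was between 373 and 492 CPM in heart (median 450), between 199 and 266 in kidney (239) and between 54.0 and 77.9 in liver (70.9), and was 3.36-fold higher in kidney than in liver, the largest such difference among the 9. Idh3g was thus the subunit that differed least between heart and kidney (0.90 ± 0.056 on the log2 scale), and Idh3b the one that differed least between heart and liver (1.76 ± 0.043).

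Ogdh had the highest CPM of the 9 in heart, between 2148 and 2855 with a median of 2345, and was between 518 and 682 in kidney (613) and between 268 and 330 in liver (302). The difference was 1.98 ± 0.048 on the log2 scale between heart and kidney, 2.98 ± 0.050 between heart and liver and 1.00 ± 0.047 between kidney and liver, with no overlap of any of the 3 tissues. Suclg1, by contrast, was between 327 and 421 CPM in heart (median 353), between 234 and 269 in kidney (249) and between 162 and 269 in liver (219). Its heart libraries did not overlap the others, and it was 1.44-fold higher in heart than in kidney (0.53 ± 0.046 on the log2 scale, edgeR, adjusted p = 1.51e-12) and 1.63-fold higher than in liver. Its 2 beta partners went opposite ways between heart and kidney, named here after their values were seen: Sucla2, of the ATP-forming enzyme, was higher in heart by 2.25 on the log2 scale and Suclg2, of the GTP-forming enzyme, fell by 0.76 relative to kidney (edgeR, adjusted p = 7.05e-32 and 1.98e-19).

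In the last part of the cycle, Sdha was between 1550 and 1966 CPM in heart (median 1786), between 681 and 855 in kidney (785) and between 604 and 850 in liver (735). Kidney and liver overlapped throughout, with a difference of 0.06 ± 0.044 on the log2 scale (95% confidence interval −0.03 to 0.15, edgeR, adjusted p = 0.243), whereas heart was 2.32-fold higher than kidney. Fh1 was between 441 and 549 CPM in heart (median 479), between 155 and 193 in kidney (176) and between 273 and 506 in liver (328). Its kidney libraries all lay under those of both other tissues, and 1 liver library, at 506 CPM, reached into the range of heart. Fh1 was 2.75-fold higher in heart than in kidney, 1.41-fold higher in heart than in liver (0.50 ± 0.057 on the log2 scale, edgeR, adjusted p = 8.81e-10) and fell by 0.97 ± 0.057 on the log2 scale in kidney relative to liver (edgeR, adjusted p = 4.79e-17). Mdh2 was between 1025 and 1349 CPM in heart (median 1200), between 235 and 282 in kidney (257) and between 195 and 262 in liver (223), 4.58-fold higher in heart than in kidney and 5.22-fold higher than in liver.

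**Figure D1:**
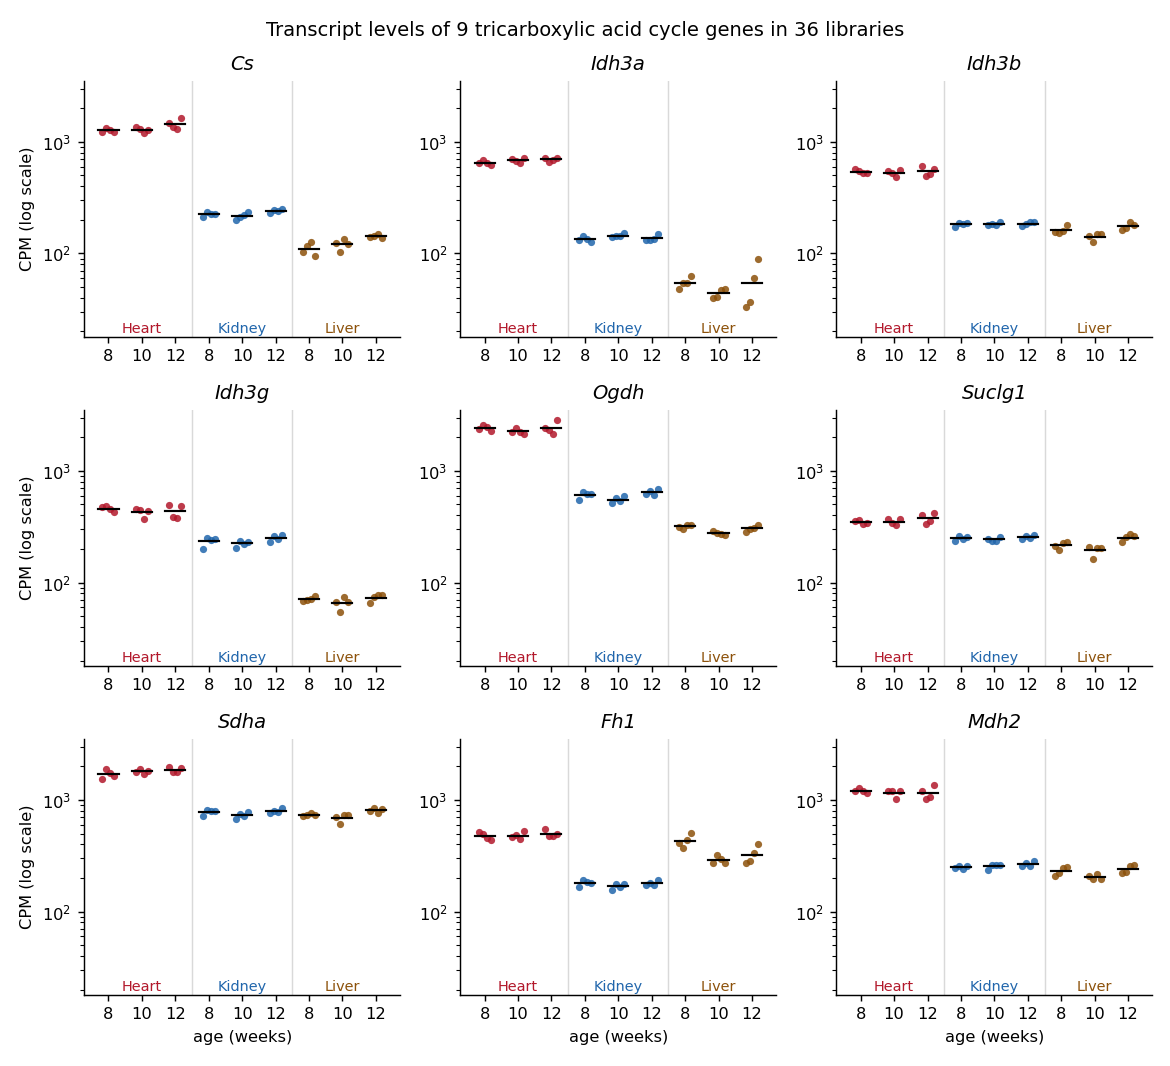
CPM of each of the 9 genes in the 36 libraries, by tissue and age, on a log axis; each point is 1 library and each bar the mean of a group of 4. The heart libraries lie above those of kidney and liver for every gene except Fh1, for which 1 8-week liver library, at 506 CPM, reaches into the heart range.

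Counted over the list, 9 of 9 genes passed the test between heart and kidney, where 86.1% of all 19716 genes tested did, and 9 of 9 between heart and liver, where 84.2% did. Between kidney and liver 8 of 9 passed, 7 higher and 1 lower in kidney, against 83.1% of all genes. Shares this near the background say little of the list. Counted by size, 7 of 9 were higher in heart than in kidney by over 1 on the log2 scale, against 21.9% of all genes, 7 of 9 higher in heart than in liver, against 28.7%, and 3 of 9 higher in kidney than in liver, against 30.6%. Their median difference was 1.55 between heart and kidney, 2.38 between heart and liver and 0.21 between kidney and liver, where the medians of all genes were −0.15, 0.00 and 0.16. The 12 libraries of each tissue did not overlap for 9 of 9 genes between heart and kidney (57.6% of all genes), 8 of 9 between heart and liver (53.0%) and 5 of 9 between kidney and liver (49.5%). The heart libraries served in both of the first 2 comparisons, and the kidney and liver libraries in 2 each.

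The differences depend on the scaling. The TMM factors were 0.896 to 0.981 in heart, 1.30 to 1.42 in kidney and 0.724 to 0.821 in liver. With library totals alone the median of all genes moved to −0.67 between heart and kidney, 0.22 between heart and liver and 0.93 between kidney and liver. On that scale Suclg1 did not differ between heart and kidney (−0.0042 on the log2 scale, adjusted p = 0.942), Fh1 was −0.17 between kidney and liver, and Sdha was higher in kidney by 0.85 and passed. A change of scaling shifts all genes of a comparison by nearly the same amount. Values measured from the median of all genes therefore had to stay close. Each moved by less than 0.1 between 4 scalings, which is no test of the scaling. Relative to that median all 9 were above 0 in heart against kidney and in heart against liver, 7 of 9 were above 0 in kidney against liver, Suclg1 stood 0.68 above it between heart and kidney, and Fh1 stood at −1.12 and Sdha at −0.10 between kidney and liver.

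**Figure D2:**
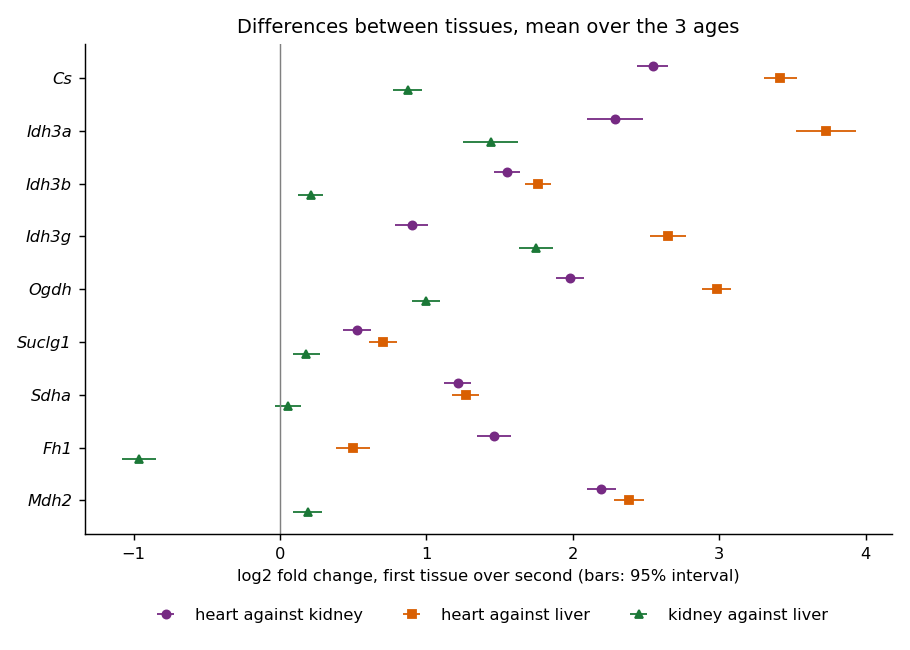
Log2 difference of each of the 9 genes between tissues, mean over the 3 ages, with 95% confidence intervals from the 36-library fit. Cs (2.55) and Idh3a (2.29) lie farthest from kidney, Idh3a (3.73) farthest from liver, and Fh1 is the 1 gene below 0 between kidney and liver.

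Taken at each age on its own, the gaps of some genes had unequal estimates. At 8 weeks Fh1 differed between heart and liver by 0.14 ± 0.098 on the log2 scale (edgeR, adjusted p = 0.188), at 10 weeks by 0.72 ± 0.099 (adjusted p = 5.51e-08) and at 12 weeks by 0.62 ± 0.099 (adjusted p = 8.98e-07). Between kidney and liver, Suclg1 differed by 0.20 ± 0.080 at 8 weeks (adjusted p = 0.0258), 0.32 ± 0.080 at 10 weeks (adjusted p = 0.00069) and 0.02 ± 0.080 at 12 weeks (adjusted p = 0.815). Idh3b differed by 0.18 ± 0.073 at 8 weeks (adjusted p = 0.0258), 0.38 ± 0.073 at 10 weeks (adjusted p = 2.49e-05) and 0.08 ± 0.072 at 12 weeks (adjusted p = 0.35). Both gaps were narrowest at 12 weeks, and whether they differed between the ages was tested only as the interaction of 12 against 8 weeks given below.

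Compared with each other per kilobase, the genes changed order between tissues. Per kilobase of the canonical transcript, Mdh2 was the highest of the 9 in heart at 783 CPM per kilobase, followed by Sdha at 584, Cs at 450 and Ogdh at 349, and Fh1 was the lowest at 91.7. In kidney Sdha led at 252 and Fh1 was last at 33.3, and in liver Sdha led at 243 and Idh3a was last at 19.8. With the union of all exons as length, Ogdh led in heart at 254 CPM per kilobase and Idh3a was last in kidney at 16.9, and 12 of the 27 ranks moved, but Sdha stayed first in kidney and liver, Fh1 last in heart and Idh3a last in liver.

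A ratio of 2 members within a library needs no scaling between libraries, and its comparison across tissues does not depend on the lengths. Idh3b to Idh3a was 1.28 ± 0.067 per kilobase in heart (SD, n = 12), 2.13 ± 0.111 in kidney and 5.24 ± 1.23 in liver, where single libraries ranged from 3.27 to 7.73. Idh3g to Idh3a averaged 1.07 ± 0.097 in heart, against 2.81 ± 0.277 in kidney and 2.37 ± 0.521 in liver. Per kilobase of the canonical transcript, the regulatory subunits were thus near the level of the catalytic one in heart and above it in the other 2 tissues. Idh3b to Idh3g was 0.762 ± 0.052 in kidney and 2.21 ± 0.141 in liver. Such levels within a tissue depend on the length used. With the union of all exons, Idh3b and Idh3g were 44.2 and 45.9 CPM per kilobase in kidney. In heart Idh3b, Idh3g and Idh3a were then 129.5, 85.5 and 82.4.

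Set against the entry enzyme Cs, every later enzyme was lowest in heart except Idh3a. Sdha to Cs averaged 1.30 ± 0.077 in heart, against 3.27 ± 0.104 in kidney and 5.81 ± 0.67 in liver, with no overlap of the 3 ranges. Suclg1 to Cs was 0.526 ± 0.023, 2.14 ± 0.094 and 3.48 ± 0.471, and Mdh2 to Cs was 1.74 ± 0.135, 2.23 ± 0.097 and 3.61 ± 0.571 in the same order. Ogdh to Cs changed little between kidney (1.15 ± 0.047) and liver (1.07 ± 0.194). Fh1 to Cs ran from 0.205 ± 0.016 in heart through 0.433 ± 0.019 in kidney to 1.62 ± 0.558 in liver, the widest span of these ratios.

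**Figure D3:**
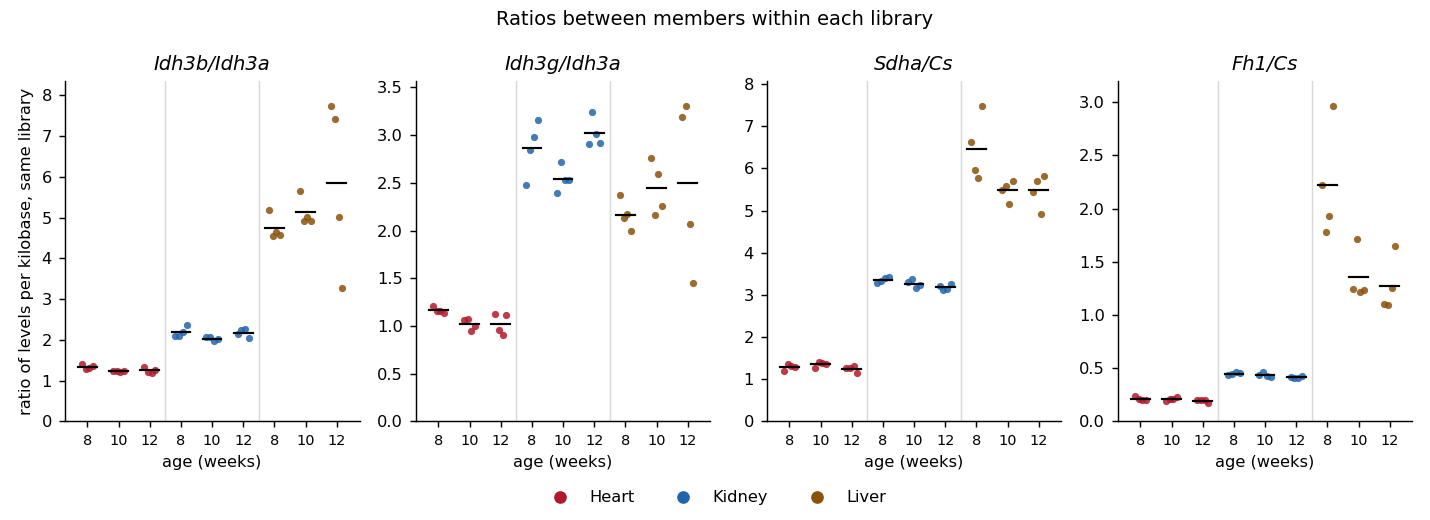
Ratio of 2 members in the same library, in CPM per kilobase of the canonical transcript on a linear axis from 0, for the 36 libraries by tissue and age; each point is 1 library and each bar the mean of a group of 4. Over the 12 libraries of a tissue, Idh3b to Idh3a averages 1.28 in heart and 5.24 in liver and Fh1 to Cs 0.205 and 1.62, with the widest scatter in liver.

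Whether the cycle changed between 8, 10 and 12 weeks was tested within each tissue, in the study's own design of 1 model per tissue. Of the 9 genes 0 passed at an adjusted p under 0.05 in each of the 9 comparisons (edgeR quasi-likelihood, Benjamini-Hochberg over all genes kept). The share of all genes that passed was also small: in heart 1.06% between 10 and 8 weeks, 4.56% between 12 and 8 weeks and 0.0396% between 12 and 10 weeks. In kidney it was 0.929%, 0.0567% and 0.482% in the same order, and in liver 0.0204%, 0.239% and 0.0545%. With limma-voom the count of members was also 0 in all 9, whereas DESeq2 called 1 in kidney and between 1 and 2 in each liver comparison. DESeq2 also called more of all genes there. In kidney between 12 and 10 weeks it called 657, where edgeR called 85. In liver it called 361, 423 and 483 between 10 and 8, 12 and 8 and 12 and 10 weeks, where edgeR called 3, 35 and 8. Log2 differences with age are from the model of each tissue, whereas the CPM printed beside them share 1 scale over the 36 libraries. Comparisons within a tissue share a group of 4 libraries.

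In heart the differences with age were small. At an unadjusted p under 0.05 there were 0, 1 and 0 members between 10 and 8, 12 and 8 and 12 and 10 weeks, where 15.8%, 23.4% and 11.7% of all genes were, and their median differences were 0.01, 0.06 and 0.04 on the log2 scale. The 1 gene was Cs. It was 1235, 1327, 1272 and 1236 CPM at 8 weeks, 1345, 1303, 1199 and 1276 at 10 weeks and 1486, 1345, 1294 and 1622 at 12 weeks. The groups overlapped, and the difference between 12 and 8 weeks was 0.18 ± 0.080 on the log2 scale (edgeR, adjusted p = 0.198). The first and the fourth of the 12-week heart libraries had the 2 highest CPM of that group for each of the 9 members. Mdh2 spanned 1030 to 1349 CPM at 12 weeks and 1149 to 1274 at 8 weeks.

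In kidney the members at an unadjusted p under 0.05 numbered 1, 1 and 2 in the same order, against 16.5%, 11.7% and 16.4% of all genes, and the median differences were −0.03, 0.05 and 0.08. Ogdh was 552, 644, 624 and 626 CPM at 8 weeks, 518, 568, 536 and 591 at 10 weeks and 618, 654, 607 and 682 at 12 weeks. The 10-week and 12-week libraries of Ogdh did not overlap, as held for 1 of 9 members and for 9.13% of all genes. The difference was 0.19 ± 0.062 on the log2 scale (edgeR, adjusted p = 0.138; it passed with DESeq2). Cs had a difference of 0.15 ± 0.054 between 12 and 10 weeks (edgeR, adjusted p = 0.196) and Idh3a one of 0.13 ± 0.055 between 10 and 8 weeks (edgeR, adjusted p = 0.258). The narrow 95% confidence intervals bound any change in kidney: over the 9 genes and 3 comparisons they lay between −0.25 and 0.33 on the log2 scale.

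**Figure D4:**
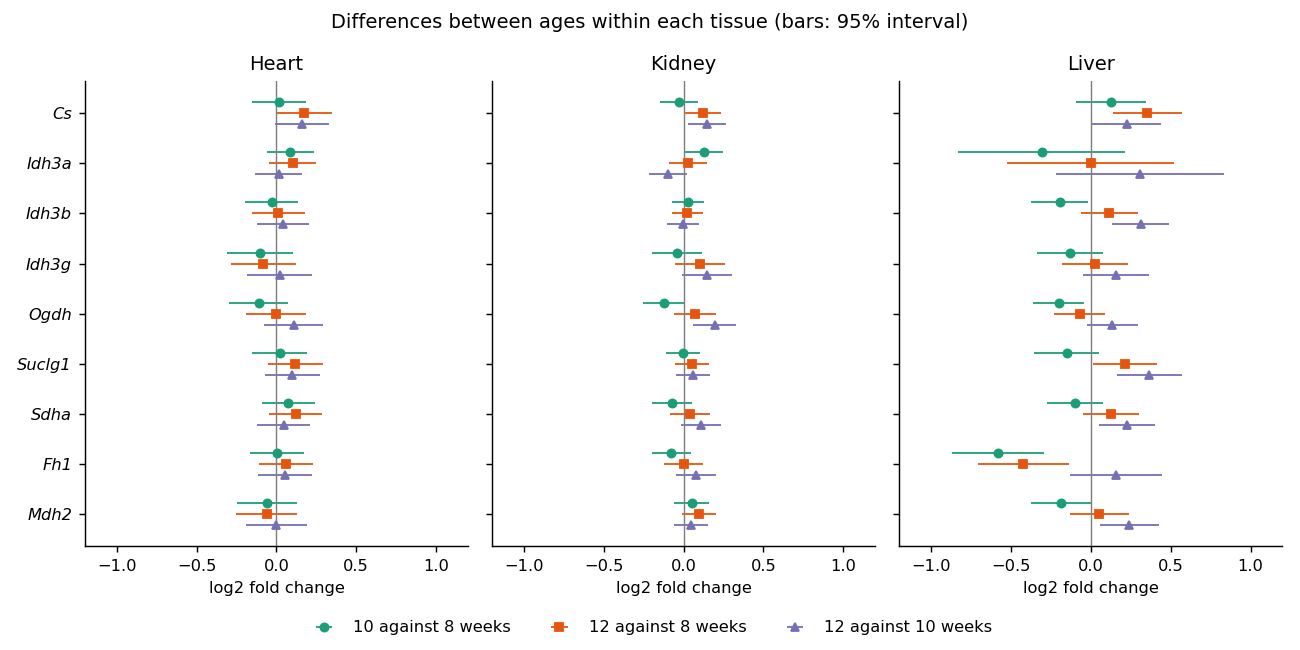
Log2 difference of each of the 9 genes between ages within a tissue, with 95% confidence intervals from the fit of that tissue. The intervals are narrowest in kidney and widest in liver, where Fh1 lies at −0.58 between 10 and 8 weeks. Between 12 and 10 weeks 9 of 9 genes lie above 0 in liver, with a median of 0.23 against 0.01 for all genes. In each panel 0 of 9 passed the adjusted threshold.

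In liver the values moved more, and so did the spread: the common coefficient of variation of all genes was 0.206 in liver, 0.118 in heart and 0.113 in kidney. Members at an unadjusted p under 0.05 numbered 4 between 10 and 8 weeks, 3 between 12 and 8 weeks and 5 between 12 and 10 weeks, against 14.3%, 15.1% and 14.1% of all genes. The median differences of the members were −0.19, 0.05 and 0.23, where those of all genes were 0.00, 0.00 and 0.01. Groups of 4 did not overlap for 3 of 9 members between 10 and 8 weeks (9.47% of all genes), 2 of 9 between 12 and 8 weeks (7.95%) and 5 of 9 between 12 and 10 weeks (8.09%). The first and the last comparison share the 10-week libraries, which were the low group of both. The second 10-week liver had the lowest CPM of its group for Cs, Idh3b, Idh3g, Suclg1, Sdha and Mdh2 and the highest for Fh1. Over all genes its counts were far from the other 10-week livers, with a mean chi-square per gene of 99.6 to 127.8. Among those others it was 20.8 to 35.2.

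Fh1 showed the largest difference with age of any member in any tissue. It was 412, 374, 438 and 506 CPM at 8 weeks, 275, 320, 294 and 273 at 10 weeks and 275, 282, 336 and 404 at 12 weeks. All 8-week livers were above all 10-week livers, and only 1 12-week liver reached into the 8-week range. The difference was −0.58 ± 0.13 on the log2 scale between 10 and 8 weeks (95% confidence interval −0.87 to −0.29, edgeR, adjusted p = 0.122) and −0.42 ± 0.13 between 12 and 8 weeks (adjusted p = 0.179). Neither passed in the liver model. With DESeq2, which called 361 of all genes there against 3 with edgeR, the first passed (adjusted p = 0.00707). In the edgeR model of all 36 libraries both did (adjusted p = 0.00121 and 0.0115).

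Cs went the other way in the same livers. It was 103, 117, 127 and 95.3 CPM at 8 weeks, 124, 104, 135 and 123 at 10 weeks and 139, 143, 149 and 137 at 12 weeks. The 12-week livers were above all those of the other 2 ages, and the difference between 12 and 8 weeks was 0.35 ± 0.10 on the log2 scale (95% confidence interval 0.14 to 0.57, edgeR, adjusted p = 0.146; DESeq2, adjusted p = 0.0414). The ratio of Fh1 to Cs was 2.22 ± 0.525 at 8 weeks (SD, n = 4), 1.35 ± 0.244 at 10 weeks and 1.28 ± 0.259 at 12 weeks, while in kidney it lay between 0.406 and 0.462 in all 12 libraries.

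Suclg1 and Idh3b were lowest at 10 weeks and highest at 12. Suclg1 was 212, 197, 226 and 230 CPM at 8 weeks, 209, 162, 206 and 205 at 10 weeks and 229, 254, 269 and 259 at 12 weeks. Its difference between 12 and 10 weeks was 0.37 ± 0.093 on the log2 scale (edgeR, adjusted p = 0.112; DESeq2, adjusted p = 0.0108). Idh3b was 155, 153, 158 and 179 CPM at 8 weeks, 142, 126, 149 and 149 at 10 weeks and 161, 171, 191 and 180 at 12 weeks, with a difference of 0.31 ± 0.083 between 12 and 10 weeks (edgeR, adjusted p = 0.122; DESeq2, adjusted p = 0.0135). For both genes the 12-week livers lay above all 10-week livers. Mdh2 and Sdha had like differences between 12 and 10 weeks, 0.24 ± 0.087 and 0.23 ± 0.081 (edgeR, adjusted p = 0.236 and 0.24), and Ogdh was −0.20 ± 0.074 between 10 and 8 weeks (adjusted p = 0.245).

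Idh3a was the most uneven of the 9. It was 47.8, 53.9, 54.3 and 62.5 CPM at 8 weeks, 40.2, 41.1, 47.4 and 48.3 at 10 weeks and 33.4, 36.8, 60.9 and 88.3 at 12 weeks. The 12-week livers held both the lowest and the highest value of all 12, with a coefficient of variation of 46.3%, and the 95% confidence interval of the difference between 12 and 8 weeks, −0.52 to 0.52, allows a change of either sign. Idh3g stayed between 54.0 and 77.9 CPM over the 12 livers.

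Other measures moved with the same livers. The summed CPM of the 6 hepatocyte markers was 117095 to 155919 at 8 weeks, 88175 to 114613 at 10 weeks and 113334 to 143192 at 12 weeks. The sum is mostly Alb, the serum albumin gene, which was 91776 to 122795 CPM at 8 weeks and 66237 to 85523 at 10 weeks, so that the 10-week livers lay below all 8-week livers, as they did for Fh1, Idh3b and Ogdh. The other markers did not share this pattern. Apoa2 was 385 to 482 CPM at 8 weeks and 584 to 640 at 10 weeks and Serpina1c was 457 to 492 and 621 to 692, both higher at 10 weeks without overlap, whereas Cyp2e1, Fgb and Cps1 overlapped. The sum of 6 blood and immune genes was 136 to 161 CPM at 8 weeks, 166 to 220 at 10 weeks and 194 to 225 at 12 weeks, with 2 of the 6 at 0 in every liver of each age. Its genes did not move as 1. Alas2, a heme synthesis gene of red cell precursors, was 97.6 to 123 CPM, 88.3 to 133 and 137 to 161 at the 3 ages. The leukocyte gene Ptprc was 5.44 to 10.2, 9.44 to 16.4 and 5.67 to 8.68 CPM, and Cd74, of antigen-presenting cells, was 24.6 to 36.6, 49.9 to 75.2 and 29.2 to 58.1, both with their highest values at 10 weeks. The sum of 5 markers of stroma and endothelium was 209 to 326 CPM at 8 weeks, 231 to 301 at 10 weeks and 157 to 233 at 12 weeks. Its endothelial gene Pecam1, at 19.4 to 25.8, 23.4 to 34.2 and 12.4 to 16.3 CPM, was lower in all 12-week livers than in any younger liver. The share of unmapped pairs was 2.81% to 6.96%, 6.50% to 13.0% and 6.46% to 9.51% at the 3 ages. Their part in these differences was not tested.

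Whether the change between 8 and 12 weeks differed between tissues was tested as an interaction in the model of all 36 libraries. For Fh1 the change in heart exceeded that in liver by 0.48 ± 0.14 on the log2 scale (95% confidence interval 0.20 to 0.76, edgeR, adjusted p = 0.0441), 1 of 9 members, against 4.16% of all genes. Heart Fh1 was 521, 493, 455 and 441 CPM at 8 weeks and 549, 475, 472 and 499 at 12 weeks, groups that overlapped. The call was close to the threshold: it held with DESeq2 (adjusted p = 0.0111) and limma-voom (0.029) and was lost without the count filter (0.0951). It was also lost with the replicate number within each age as a block across tissues (0.49 on the log2 scale, adjusted p = 0.0553) and when 19 of the 36 libraries were each left out in turn. Between kidney and liver 0 of 9 members passed, with 2 at an unadjusted p under 0.05, Fh1 at 0.41 ± 0.14 (adjusted p = 0.194) and Cs at −0.25 ± 0.12 (adjusted p = 0.447), against 0.304% of all genes past the threshold. Between heart and kidney 0 of 9 passed, with 0 at an unadjusted p under 0.05, against 0.112% of all genes. DESeq2 and limma-voom also called 0 members in these last 2 interactions.

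Within a tissue the members varied together from library to library to different degrees. Over the 36 pairs of members, the median Pearson correlation of log2 CPM over 12 libraries was 0.59 in heart and also 0.59 in liver, and 0.62 in kidney, given as a description because pairs of genes in a library share its scaling. All 36 pairs were positive in heart, 35 in kidney and 33 in liver. In kidney Ogdh and Sdha had the highest value, 0.95, and Idh3a was the odd member, with −0.14 against Ogdh and 0.34 against the mean profile of the 9. In liver Idh3b and Suclg1 had 0.93 and Ogdh and Fh1 0.87, whereas Cs had −0.52 against Fh1 and −0.20 against Ogdh and only 0.36 against the mean profile.

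Over all 36 libraries the member farthest from the mean profile was Fh1, at 0.63, followed by Idh3g at 0.86. The other 7 lay between 0.955 and 0.996. Among the 10 genes outside the list with the profile most like it were Slc25a11, the oxoglutarate and malate carrier, Atp5f1a of the ATP synthase, Coq9 of ubiquinone synthesis, Isca1, Bzw2, Egln1, Uqcc1, Dele1 and Pfkm, with correlations between 0.992 and 0.996 over 36 libraries. These values mainly restate the differences between the 3 tissues. Within heart the 5 nearest included Polr1d, Adhfe1, Oat and Sdhc (0.896 to 0.947), and the 5 nearest were within kidney Msra, Abcf3, Rpl7l1, Mccc2 and Arpc3 (0.921 to 0.940) and within liver Atp5f1a, Nap1l4, Atp5f1c, Sdhb and Uqcrfs1 (0.940 to 0.971), each over 12 libraries.

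The other genes of the cycle followed the 9 in part. The counts between tissues in this and the lists that follow stand against 86.1%, 84.2% and 83.1% of all genes that passed between heart and kidney, heart and liver, and kidney and liver, so that counts near these shares are no result about a list. Of 10 tested, 9 were higher and 1, Suclg2, was lower in heart than in kidney and likewise in heart than in liver, with medians of 1.48 and 1.58. Between kidney and liver 7 were higher and 3, Sdhb, Sdhd and Sucla2, were lower. Idh2, the NADP-dependent isocitrate dehydrogenase, was higher in heart than in liver by 3.89 on the log2 scale. The other subunits of succinate dehydrogenase did not match Sdha between kidney and liver: Sdhc was higher in kidney by 0.22, Sdhb was −0.15 and Sdhd −0.40 (edgeR, adjusted p = 0.000137, 0.00774 and 2.94e-10). These genes of the cycle were named after their values were seen. With age 0 of them passed in any tissue. In liver 9 of the 9 tested were higher at 12 than at 10 weeks, 8 of them at an unadjusted p under 0.05, with a median of 0.28, beside a median of 0.23 for the 9 members. For all genes in that comparison the median was 0.01, and 14.1% were at an unadjusted p under 0.05.

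Of 18 genes that feed the cycle, 2 rose in heart, where 1.06% of all genes passed between 10 and 8 weeks and 4.56% between 12 and 8 weeks. Pdp2, a phosphatase that activates pyruvate dehydrogenase, rose from a mean of 34.1 CPM at 8 weeks to 50.7 at 10 weeks and 55.2 at 12 weeks (edgeR, 0.57 ± 0.11, adjusted p = 0.0193, and 0.69 ± 0.11, adjusted p = 0.00373). Pdk4, a kinase that inactivates the same complex, rose from a mean of 716 CPM at 8 weeks to 1245 at 12 weeks (0.79 ± 0.16, adjusted p = 0.015), with 812 at 10 weeks. Between tissues 13 of the 18 were higher and 5 lower in heart than in kidney, 15 and 3 in heart than in liver, and 11 and 7 in kidney than in liver. In kidney and liver 0 of this list passed with age. The interaction of heart against liver between 8 and 12 weeks called 2 of the 18, against 4.16% of all genes. They were Pdpr, the regulatory subunit of pyruvate dehydrogenase phosphatase, at 0.87 ± 0.21 on the log2 scale (edgeR, adjusted p = 0.0167) and Mpc2, a subunit of the mitochondrial pyruvate carrier, at −0.44 ± 0.12 (adjusted p = 0.032).

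A further list held 13 genes of carriers of cycle intermediates and of enzymes that convert them, mostly outside the matrix. Of the 13, 7 were higher and 6 lower in heart than in kidney, and 6 and 7 in heart than in liver. Between kidney and liver 6 were higher and 6 lower in kidney, and 0 passed with age within a tissue. In the interaction of heart against liver 2 of the 13 passed, against 4.16% of all genes. They were the citrate carrier Slc25a1 at −0.56 ± 0.15 (edgeR, adjusted p = 0.0249) and the dicarboxylate carrier Slc25a10 at −0.53 ± 0.14 (adjusted p = 0.0307). Of 7 genes of assembly and metabolite repair, 3 were higher and 3 lower in heart than in kidney, 3 and 2 in heart than in liver, and 1 and 3 in kidney than in liver. Of 10 regulators of mitochondrial gene expression, the counts were 6 and 2, 5 and 4, and 4 and 5 in the same order. In neither of these lists did a gene pass with age or in an interaction. For comparison, 26 of 28 nuclear subunits of complex I were higher in heart than in kidney and 27 of 28 in heart than in liver, with medians of 1.68 and 1.66 beside 1.55 and 2.38 for the cycle, whereas between kidney and liver 11 were higher and 13 lower. With age 4 of the 28 rose in kidney between 8 and 10 weeks, where 0.929% of all genes passed, and 4 fell between 10 and 12 weeks, where 0.482% did. In heart 1 rose and 1 fell between 8 and 12 weeks, where 4.56% of all genes passed. The cycle, a shorter list, had 0 in these comparisons. Of 19 genes of fatty acid oxidation, 18 were higher and 1 lower in heart than in kidney, 16 and 3 in heart than in liver, and 4 and 14 in kidney than in liver. Of 19 genes of glycolysis the counts were 14 and 5, 13 and 5, and 11 and 6, and neither list had a gene that passed with age within a tissue. The interaction between 8 and 12 weeks called 2 genes of fatty acid oxidation and 2 of complex I in heart against liver, all with the change in heart below that in liver, where 4.16% of all genes passed, and 1 of fatty acid oxidation in kidney against liver, with the change in kidney below that in liver, where 0.304% did. In liver the median of the fatty acid oxidation list was 0.30 between 12 and 8 weeks and 0.26 between 12 and 10 weeks.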

How the data were processed

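Per the study's methods and the labels, whole heart, kidney and liver of untreated mice were homogenised, and polyA libraries were sequenced in pairs on an Illumina NovaSeq. Reads were checked with FastQC 0.11.9, trimmed with cutadapt 4.2 and aligned with STAR 2.7.11b to GRCm39 with Ensembl annotation. The authors deposited STAR's raw counts of read pairs per gene for each library, of which the unstranded column was taken after a check that the first strand held 49.8% to 50.2% of the stranded counts. Rows that name no gene stayed out of all totals and tests.

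Genes were kept where at least 1 group had 2 or more libraries above 0 and a mean count of at least 10. Counts were fitted with edgeR 4.0.16 (R 4.3.3; TMM factors, quasi-likelihood F-test), per tissue for the age comparisons (15137, 17649 and 14672 genes in heart, kidney and liver) and over 9 groups for tissues and interactions (19716 genes). Calls were made at a Benjamini-Hochberg adjusted p under 0.05 over all genes of a fit. SE is the absolute log2 fold change over the square root of F. The script recovered known changes on simulated counts. DESeq2 1.42.0, limma-voom (limma 3.58.1), other scalings, filters and strands, a replicate block and leaving out each library were alternatives. The block was the replicate number within each age in the fits over 9 groups, and the replicate number alone in the fits per tissue. Positions, lengths and promoters are from GENCODE M39 on GRCm39. Depth allows a small counting error for genes of this abundance, and replicate spread sets the precision.

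The members and gene lists were chosen with earlier results of these data known. All 9 members were named in every comparison. From the other lists of the pathway, genes that passed with age were named by the size of their change, likeness was ranked by Pearson correlation with the mean profile of the members, and genes named outside this rule are marked in the text. Values of some single genes of these lists are not reported here.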

Additional observations from a re-analysis of the deposited data

Results flagged for a closer look

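Among 81 groups of 4 libraries (9 genes in 9 groups), 5 held 1 library set apart from the other 3 by Dixon's criterion, which chance alone gives in about 1 of 20 groups. Idh3b was 178.93 CPM in the fourth 8-week liver, with the next at 157.66. Idh3g was 199.16 CPM in the first 8-week kidney, with the next at 242.15. Suclg1 was 162.44 CPM in the second 10-week liver, with the next at 204.7. Mdh2 was 1024.58 CPM in the third 10-week heart, with the next at 1196.8, and 235.22 CPM in the first 10-week kidney, with the next at 259.6. The change of Fh1 between 8 and 12 weeks differed between heart and liver by 0.479 on the log2 scale (edgeR interaction, adjusted p = 0.0441). Causes were not tested.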

How the results depend on the processing

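The tissue calls kept their direction and their side of the threshold under the alternatives, with 4 exceptions among 237 values of single genes: with library totals alone the heart against kidney difference of Suclg1 was −0.00418, and Sdha passed between kidney and liver with library totals, with upper-quartile factors and with the first strand column. Leaving out each library changed no tissue call. Leaving out the 100 most abundant genes removed Ogdh and Sdha, so that 7 members were tested. Among the age comparisons, the count of members past the threshold was 0 except with DESeq2 (1 in kidney between 12 and 10 weeks; in liver 1 between 10 and 8, 1 between 12 and 8 and 2 between 12 and 10 weeks), with all 36 libraries in 1 model (in liver 1, 2 and 2 in the same order) and with no count filter (1 in liver between 10 and 8 weeks). DESeq2 also called more of all genes than edgeR in those kidney and liver comparisons, as given above. Leaving out each library in turn gave 0 members in all 9 age comparisons.

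For the interactions, the count of members between heart and liver was 0 with no count filter and 0 with the block of replicate number within age (Fh1 0.49, adjusted p = 0.0553). It was 0 to 1 when each library was left out. The Fh1 difference then ran from 0.40 to 0.60, with adjusted p from 0.00405 to 0.0988, and the call was lost without heart 8-week replicates 2, 3 and 4, heart 10-week replicate 3, heart 12-week replicates 1, 2 and 3, the same numbered kidney libraries of each age, liver 8-week replicates 3 and 4, or liver 12-week replicates 1, 2 and 3. Between kidney and liver the count was 0 to 1, the 1 being Fh1 (0.54, adjusted p = 0.0277) without liver 12-week replicate 4. The labels do not say that a replicate number marks 1 animal, and the number was not taken to pair libraries. The main tissue and interaction tests thus treat the libraries as independent. Correlations of deviations between tissues for the same number ran from −0.00884 to 0.164. The same number was the best match in 12 of 12 cases between kidney and liver, all positive, in 9 of 12 between heart and kidney and in 7 of 12 between heart and liver, a hint of pairing from the data and not the design. Within tissues the correlations ran from −0.17 to 0.118. In the 9 age comparisons the block was the replicate number alone and gave 0 members in all. There the number joins different animals of different ages, so that fit does not bear on pairing. The cause of these changes was not tested. Counts over all genes are less stable than the members: leaving out 1 library gave 2 to 84 calls between 10-week and 8-week livers and 172 to 1850 between 12-week and 8-week hearts.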
